A study of Mus musculus with 6 samples.

Results

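The choroid plexus is the frond of vascular tissue inside the brain ventricles whose epithelium makes most of the cerebrospinal fluid. Its epithelial cells secrete transthyretin, pump sodium, bicarbonate and chloride towards the ventricle, carry vitamins and hormones across the barrier between blood and fluid, and are sealed by tight junctions. They arise from the dorsal midline of the neural tube under Otx2, Lmx1a and Msx1, and they share a border and part of their ciliary program with the ependymal cells that line the ventricle wall.

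Nuclei of this epithelium were found in single-nucleus RNA libraries of hippocampi, frozen before nuclei were isolated, from mice aged 18 to 20 months. The study compared 3 libraries made after inhalation of 2% sevoflurane, an anaesthetic gas, in 60% oxygen with 3 made after 60% oxygen without it, both for 6 h at 1 L/min, and the epithelium was found almost only in the oxygen libraries. Both groups therefore received the raised oxygen, and no label names a strain or a genetic change. In either group the label is male for replicates 1 and 2 and female for replicate 3. Nuclei were chosen by their counts. A nucleus was taken as choroid plexus epithelium when it held at least 500 UMIs (unique molecular identifiers, counts of captured RNA molecules), at most 5% of them from mitochondrial genes, and at least 1 UMI in 3 or more of Folr1, Clic6, Kl, Otx2, Kcnj13, Slc4a5 and Tmem72. Transthyretin itself was kept out of this gate because many nuclei outside it also held a Ttr UMI. The gate took 191 of the 24913 oxygen nuclei that passed the filters, in a series of 53294 such nuclei. The number of animals behind a library is not labelled, so all spreads and p-values below refer to libraries and may be technical.

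Totals ran from 56334621 to 72636984 UMIs per library, and the median choroid plexus nucleus held 4879, 5397 and 5347.5 UMIs in oxygen replicates 1 to 3, against 4789.5, 6238 and 5715 UMIs in all other nuclei of those libraries. Between 15 and 33 barcodes occurred in any given pair of libraries, and no barcode was a choroid plexus nucleus in more than 1 of them. CPM below are UMIs per 1000000 UMIs of the nuclei summed. Sevoflurane replicate 3 and oxygen replicate 3, labelled female, held 0.774 and 0.742 CPM of Xist and 374 and 367 CPM of 4 Y-linked genes, whereas sevoflurane replicate 1, labelled male, held 1369 CPM of Xist. All 3 oxygen libraries carried the male pattern of these genes, against the label of replicate 3.

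The 7 genes of the gate are spread over the genome of the mouse (mm10 build): Folr1 lies at chr7:101858331-101870788, Clic6 at chr16:92485736-92541243, Kl at chr5:150952607-150993817, Otx2 at chr14:48657677-48673819, Kcnj13 at chr1:87386363-87394729, Slc4a5 at chr6:83219828-83304945 and Tmem72 at chr6:116679063-116716913. All 7 are annotated as protein-coding genes. Otx2 codes for the homeodomain factor of the lineage, and the letters TAATCC, read on either strand, are the core motif of Otx factors. The motif was therefore looked for in RefSeq promoters of build GRCm38.p6, each running from 250 bases before to 50 bases after a gene's start. It was found in 1 of the 5 gate genes with a promoter in the table, in 2 of 18 such genes among the 25 genes named below as highest over all other nuclei (11.1%), and in 8.14% of all 27025 genes with a promoter. The share among the named genes was close to that of all genes. The promoters that hold it are given because they belong to genes that mark these nuclei, with the motif in capitals (GGATTA is the same motif on the other strand), and each letter run is read 5′ to 3′ on the strand of its gene.
Otx2, chr14:48665060-48665359, minus strand, motif at -211: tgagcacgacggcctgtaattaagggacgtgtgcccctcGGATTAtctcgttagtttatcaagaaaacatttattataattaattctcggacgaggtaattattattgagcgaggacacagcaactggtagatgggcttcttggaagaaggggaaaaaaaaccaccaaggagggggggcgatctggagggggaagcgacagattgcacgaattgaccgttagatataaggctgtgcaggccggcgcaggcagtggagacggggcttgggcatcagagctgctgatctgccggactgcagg
Rbm47, chr5:66151905-66152204, minus strand, motif at -220: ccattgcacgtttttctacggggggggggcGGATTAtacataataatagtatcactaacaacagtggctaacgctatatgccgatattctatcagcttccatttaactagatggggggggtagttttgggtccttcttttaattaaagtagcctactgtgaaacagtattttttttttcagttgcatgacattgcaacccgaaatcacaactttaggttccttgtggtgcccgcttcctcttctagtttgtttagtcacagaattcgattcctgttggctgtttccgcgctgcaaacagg
Abca4, chr3:122044210-122044509, plus strand, motif at -58: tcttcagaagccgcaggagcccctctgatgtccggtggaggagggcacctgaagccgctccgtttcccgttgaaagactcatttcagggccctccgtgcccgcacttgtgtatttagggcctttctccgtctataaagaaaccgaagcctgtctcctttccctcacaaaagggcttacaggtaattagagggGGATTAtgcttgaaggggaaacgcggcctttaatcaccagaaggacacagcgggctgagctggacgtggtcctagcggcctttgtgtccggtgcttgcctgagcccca
Otx2 has further starts in the table whose promoters lack these letters, and so does Rbm47, which codes for an RNA-binding protein. Abca4 codes for a lipid flippase known from the photoreceptor. A match of letters is a description and was not tested as a binding site.

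The oxygen libraries held choroid plexus nuclei in very unequal numbers. Oxygen replicate 1 had 62 of 7940 nuclei (0.781%, 95% Wilson interval 0.610 to 1.00%). Oxygen replicate 2 had 17 of 9050 nuclei (0.188%, 0.117 to 0.301%). Oxygen replicate 3 had 112 of 7923 nuclei (1.41%, 1.18 to 1.70%). The 3 intervals did not overlap, so the share differed among libraries of 1 group by more than counting error. In the sevoflurane libraries the same gate took 2 of 10018 nuclei in replicate 1 (0.0200%), 1 of 9171 in replicate 2 (0.0109%) and 0 of 9192 in replicate 3, which allows a share of up to 0.0326%. These intervals and limits cover counting error only. The shares were known when the nuclei were chosen for description and carry no test, and the cause of the difference was not tested. Fewer choroid plexus nuclei in a library and less RNA per such nucleus cannot be told apart from summed levels.

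**Figure D1:**
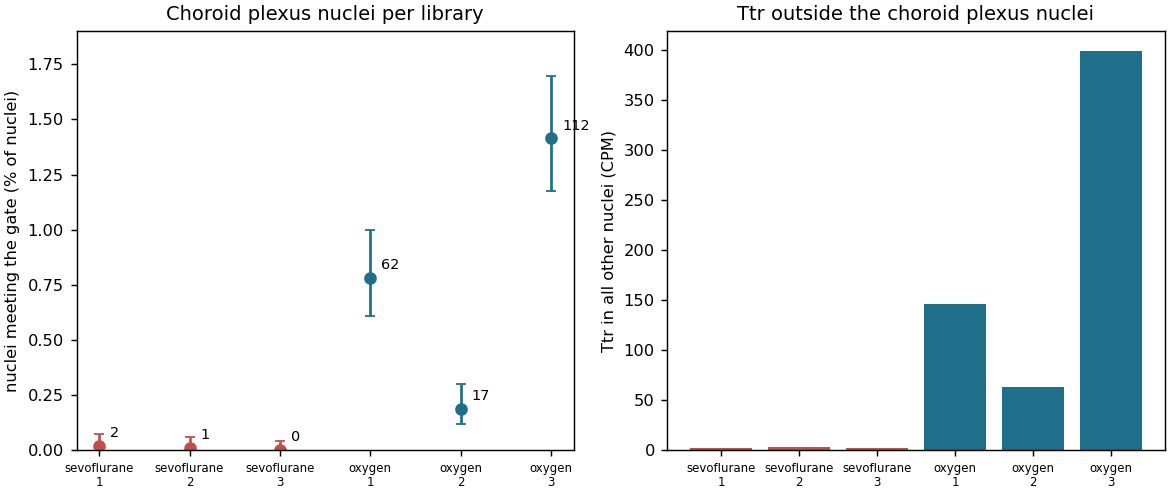
Left, share of nuclei that met the choroid plexus gate in each library (% of nuclei that passed the filters, points with 95% Wilson intervals, number of nuclei beside each point); right, Ttr level in all other nuclei of the same library (CPM). Sevoflurane libraries are at most at 0.0200% and under 3 CPM, oxygen libraries between 0.188% and 1.41% and between 63.2 and 399 CPM, and both measures are lowest in oxygen replicate 2 among the oxygen libraries.

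The 3 sevoflurane nuclei met the gate at its edge. Each held exactly 3 gate genes and 0 Ttr UMIs, and Htr2c and Enpp2, both high in the choroid plexus nuclei under oxygen, had 0 and 0, 2 and 0, and 0 and 1 UMIs in them, while Trpm3, also high under oxygen, had 0, 62 and 6. They held 6477, 38510 and 2797 UMIs, of which 3, 3 and 6 came from gate genes. The nucleus of 6477 UMIs also held 6 of 7 ependymal markers, and that of 38510 UMIs held all 7 neuronal markers. The doublet caller Scrublet marked the nuclei of 6477 and 2797 UMIs as doublets. No sum of sevoflurane choroid plexus nuclei was therefore compared with the oxygen ones.

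Around the threshold, oxygen replicates 1 to 3 held 4, 3 and 10 nuclei with exactly 3 gate genes and 48, 54 and 116 nuclei with 2. Median Ttr, which the gate did not use, was 4821, 3439 and 3243 CPM in the nuclei with 3 gate genes and 43.6, 0 and 282 CPM in those with 2. Of the 191 nuclei, 152 held 5 or more gate genes and 35 held all 7. Nuclei with 2 gate genes had medians of 12866.5, 14977 and 8851.5 UMIs, deeper than the choroid plexus nuclei. At least 3 of 7 neuronal markers were held by 38 of 62, 11 of 17 and 57 of 112 choroid plexus nuclei, by 1 of 4, 3 of 3 and 7 of 10 of those with exactly 3 gate genes, and by 43 of 48, 53 of 54 and 103 of 116 nuclei with 2 gate genes.

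The gate genes, given without a test because they chose the nuclei, stood at these levels. Clic6, which codes for a chloride channel protein, had 603, 485 and 361 CPM in choroid plexus nuclei of oxygen replicates 1 to 3, against 1.21, 1.06 and 2.54 CPM in all other nuclei. Tmem72, a membrane protein of epithelia, had 557, 543 and 309 CPM, against 0.666, 0.359 and 1.06 CPM. Kl, the anti-ageing hormone klotho, had 538, 288 and 292 CPM, against 8.88, 9.56 and 13.0 CPM. Folate receptor alpha (Folr1), which moves folate into the cerebrospinal fluid, had 153, 115 and 98.6 CPM in choroid plexus nuclei and 1.04, 0.775 and 2.06 CPM in the others. Otx2 had 347, 148 and 191 CPM in them and 0.450, 0.589 and 1.26 CPM elsewhere. The bicarbonate transporter gene Slc4a5 had 374, 353 and 197 CPM in choroid plexus and 0.504, 0.402 and 0.595 CPM in other nuclei, and the potassium channel gene Kcnj13 had 153, 222 and 156 CPM and 5.80, 6.36 and 7.41 CPM. Of the 191 nuclei, 176 held a UMI of Tmem72, 174 of Clic6, 162 of Kl, 157 of Slc4a5, 143 of Otx2, 120 of Kcnj13 and 102 of Folr1. Otx2 was seen in 80.6%, 41.2% and 76.8% of choroid plexus nuclei of replicates 1 to 3, against 0.305%, 0.332% and 0.794% of all other nuclei. Tmem72 was seen in 96.8%, 94.1% and 89.3% of them, against 0.432%, 0.277% and 0.704% of the others.

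Not all of these barcodes looked like 1 epithelial nucleus. Among the 191, 13 barcodes held more than 15000 UMIs (2, 1 and 10 in oxygen replicates 1 to 3), and Scrublet marked 5 of them among 13 marked in all. They held 13.5%, 34.6% and 50.4% of all UMIs of the choroid plexus nuclei in those replicates. The deepest, in oxygen replicate 3, had 228743 UMIs and held all 7 neuronal, all 6 astrocyte and all 5 fibroblast markers beside all 7 gate genes. Only 43 of its UMIs came from gate genes. Another of replicate 3 held 3 gate UMIs among 29218, and that of replicate 2 held 5 among 42036 and 0 Ttr UMIs. Whether such barcodes met the gate through depth alone was not tested. With the 13 barcodes the summed astrocyte markers stood at 461, 304 and 1774 CPM in choroid plexus nuclei, and without them at 332, 239 and 387 CPM, against 909, 805 and 788 CPM in all other nuclei. Fibroblast markers stood at 51.9, 32.9 and 419 CPM with them and 60.0, 50.2 and 29.9 CPM without, against 28.9, 26.5 and 34.8 CPM in all other nuclei. Endothelial markers stood at 30.03, 8.22 and 260 CPM with them and 25.3, 0 and 22.9 CPM without, against 104, 64.6 and 73.5 CPM. Microglial markers stood at 207, 123 and 265 CPM with them and 227, 176 and 227 CPM without, against 98.4, 109 and 90.3 CPM. Their sum was above the other nuclei either way. Of these markers, Cx3cr1, the fractalkine receptor, had 145, 87.9 and 171 CPM without the deep barcodes, against 14.2, 16.5 and 13.8 CPM in all other nuclei. Without those barcodes the excess of Cx3cr1 alone was at least that of the sum in each library. The other microglial markers together were thus not higher. Neuronal markers stood at 1856, 2647 and 1847 CPM with the deep barcodes and 1468, 1344 and 1297 CPM without, against 4960, 5052 and 5037 CPM in all other nuclei. In the 178 nuclei of at most 15000 UMIs only 4 markers of other types, Tmem212, Vwf, Kcnj8 and Col3a1, were at 0. Sums over all 191 nuclei are given first below, and the counts of each list without the 13 barcodes follow. The limit of 15000 UMIs was set after these values had been seen.

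**Figure D2:**
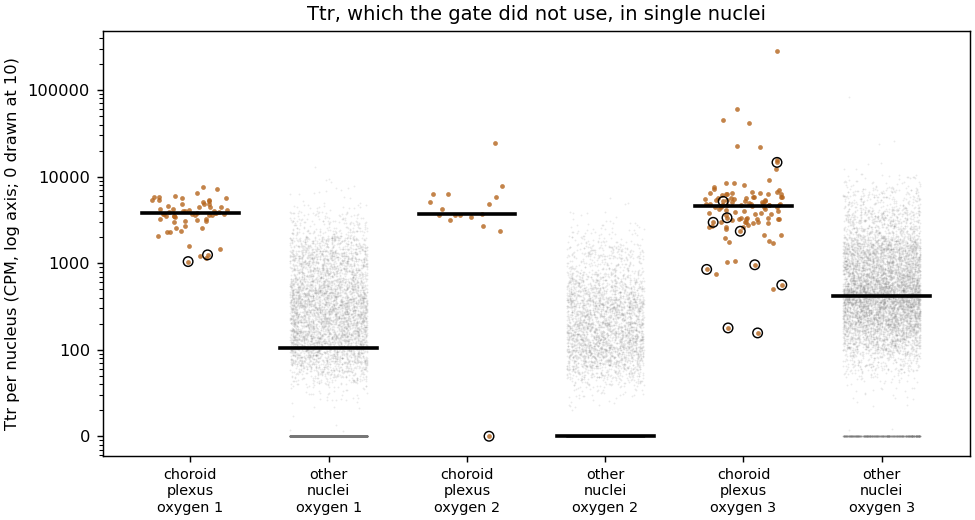
Ttr level of single nuclei (CPM, log axis, nuclei without a Ttr UMI drawn at 10) in choroid plexus nuclei and in all other nuclei of oxygen replicates 1 to 3; black lines are medians and black circles mark choroid plexus barcodes over 15000 UMIs. Medians were 3757, 3735 and 4625 CPM in choroid plexus nuclei and 103, 0 and 422 CPM in the others, with the circled barcodes mostly below the median of their library.

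Transthyretin, the carrier of thyroid hormone and retinol-binding protein and the leading secreted product of this epithelium (Ttr, chr18:20665280-20674321), was higher in the sums of these nuclei although the gate ignored it. Of the 191, 190 held a Ttr UMI. Ttr summed to 3434, 3510.0 and 6706 CPM in choroid plexus nuclei, against 146, 63.2 and 399 CPM in all other nuclei of oxygen replicates 1 to 3. In replicate 3, 1 nucleus marked as a doublet gave 2809 of the 7682 Ttr UMIs. Without the deep barcodes, which leaves that nucleus in, the sums were 3789, 5363 and 11370 CPM. Every choroid plexus sum lay above every sum of other nuclei, and the log2 fold change was 4.37 ± 0.29 (SE, 3 libraries; edgeR quasi-likelihood, adjusted p = 2.76e-48). Most Ttr molecules nevertheless lay outside. Choroid plexus nuclei held 1258, 427 and 7682 Ttr UMIs, and the other nuclei 8117, 4399 and 22131, so that 86.6%, 91.2% and 74.2% of Ttr UMIs were in nuclei that did not meet the gate.

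Outside the gate, Ttr UMIs were found in most cell types of the oxygen libraries. A Ttr UMI was held by 100%, 94.1% and 100% of choroid plexus nuclei, against 60.2%, 36.6% and 91.1% of all other nuclei, and after thinning each nucleus to 2000 UMIs by 100%, 93.8% and 97.3%, against 29.8%, 14.7% and 56.0%. Thinning left out 2, 1 and 2 choroid plexus nuclei and 1715, 1224 and 1386 others that held fewer UMIs. In oxygen replicate 3, 90.7% of nuclei with neuronal markers (median 7772 UMIs), 90.9% of those with astrocyte markers (2642.5 UMIs), 91.6% of those with oligodendrocyte markers (1966.5 UMIs) and 93.2% of those with microglial markers (2050 UMIs) held a Ttr UMI. In oxygen replicate 2 the share was 36.5% of nuclei with neuronal markers, but 10.5% of 19 with endothelial markers and 0 of 3 with pericyte markers. Per UMI the levels in replicate 3 were 311, 950.4, 1261 and 1338 CPM in the neuronal, astrocyte, oligodendrocyte and microglial nuclei, so the deeper neuronal nuclei held about the same share at a lower level. Other nuclei held on average 0.0156, 0.0179 and 0.0182 Ttr UMIs each in sevoflurane replicates 1 to 3, and 1.03, 0.487 and 2.83 in oxygen replicates 1 to 3. Over libraries this background had the same order as the share of choroid plexus nuclei among the oxygen libraries, highest in replicate 3 and lowest in replicate 2. Of the choroid plexus nuclei 57 of 62, 16 of 17 and 75 of 112 lay above the 95th percentile of the other nuclei, which stood at 1558, 637 and 3303 CPM. Single nuclei ranged widely too. There were 7 choroid plexus nuclei with over 20000 CPM of Ttr, 1 in oxygen replicate 2 and 6 in replicate 3. The highest gave 2809 of its 9806 UMIs (286457 CPM) to Ttr, held all 7 gate genes and was marked as a doublet.

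The label was then checked on 9 choroid plexus markers that the gate did not use. These were Ttr, Htr2c, Aqp1, Enpp2, Sostdc1, Prlr, Cldn2, Lmx1a and Msx1, and all 9 were called higher in choroid plexus than in all other nuclei. With the gate genes the 16 markers summed to 27048, 22236 and 19470 CPM in choroid plexus nuclei, against 352, 267 and 646 CPM in all other nuclei. Aqp1, the water channel of the apical membrane, had the smallest rise of the 9 (3.62 ± 0.68), with 13.6, 0 and 10.5 CPM in choroid plexus nuclei and 0.414, 0.459 and 0.794 CPM in the others. Only 16 of the 191 nuclei held a UMI of it. The Hox genes of the hindbrain, by which the plexus of the fourth ventricle is known, were at or near 0: Hoxa2, Hoxb2 and Hoxb3 had 0 UMIs in 191 nuclei, which allows a share of nuclei with a UMI of up to 1.57% and a level of up to 1.84 CPM, and Hoxd3 had 1 UMI, in a barcode over 15000 UMIs.

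Across the genome, 18444 genes other than the gate genes were tested against all other nuclei, with the library as a block. Of these, 2185 (11.8%) were called higher and 2681 (14.5%) lower in choroid plexus nuclei, 26.4% in all, at an adjusted p under 0.05. The median log2 fold change of all tested genes was -0.13. Without the 13 deep barcodes 2543 genes were called higher and 3548 lower, and 1825 genes were called higher both ways, 83.5% of the first list and 71.8% of the second. The 25 named genes, those with the largest rises among genes of at least 100 CPM, had log2 fold changes between 5.44 and 9.51. All 25 were called in each of the 12 alternative fits, at adjusted p-values of at most 6.32e-06.

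Htr2c, the serotonin receptor by which this epithelium answers to serotonin (chrX:146962513-147197277), had 12072, 9256 and 6326 CPM in choroid plexus nuclei of oxygen replicates 1 to 3, against 70.7, 71.1 and 83.2 CPM in all other nuclei. All 3 choroid plexus sums were higher, lowest in replicate 3, where the deep barcodes hold most, and without those barcodes they were 13597, 14143 and 12445 CPM. Its log2 fold change was 6.47 ± 0.33, and 6.99 without them.

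Regulators of the lineage followed. Lmx1a, a homeodomain factor of the roof plate from which the plexus grows, had 358, 255 and 182 CPM in choroid plexus nuclei and 0.666, 0.388 and 0.523 CPM in all other nuclei (log2 fold change 8.50 ± 0.29). Gmnc, the geminin-like regulator that commits cells to many cilia, had 819, 871 and 554 CPM against 3.38, 3.13 and 4.29 CPM (7.24 ± 0.27). Msx1, a homeobox target of bone morphogenetic proteins at the dorsal midline, had 142, 132 and 107 CPM against 2.21, 1.92 and 2.22 CPM (5.45 ± 0.32). For each of the 3 regulators the lowest choroid plexus library lay far above the highest sum of other nuclei. Otx2os1, a long noncoding RNA on the strand opposite Otx2, had the largest rise of all named genes, 9.51 ± 0.34, with 2519.7, 1669 and 1713 CPM against 1.75, 1.22 and 3.41 CPM. Its gene overlaps Otx2 over 5112 bases, chr14:48668708-48673819, and the labels do not say that strand was used in counting, so reads there cannot be told apart from those of a gate gene.

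Collagen genes were also among the 25. Col8a1 (a short-chain collagen), Col4a3 and Col4a4 (chains of specialised basement membranes) and Col9a3 had log2 fold changes of 7.47, 6.96, 5.59 and 6.79. Col8a1 had 1340.4, 1332 and 833 CPM in choroid plexus nuclei, against 4.23, 3.83 and 6.64 CPM in the others. Sulf1, which trims sulfate from heparan chains, Fap, a serine protease known from activated fibroblasts, and the coagulation factor gene F5 rose by 5.90, 6.52 and 6.56. In choroid plexus nuclei of at most 15000 UMIs Fap stood at 499, 703 and 495 CPM. Of the fibroblast genes, Col3a1 was at 0 there, Col1a2 had 31.6, 12.6 and 8.80 CPM against 3.11, 2.10 and 3.79 CPM in all other nuclei (1.92 ± 0.55, called higher), and Dcn had 22.1, 25.1 and 15.8 CPM against 21.7, 21.0 and 26.7 CPM.

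Channels and transporters completed the named rises. Trpv4, an osmosensitive calcium channel of the apical membrane, had 139, 115 and 111 CPM in choroid plexus nuclei and 0.774, 0.603 and 1.24 CPM in all other nuclei (6.68 ± 0.35). Slc13a4, a sulfate transporter, had 322, 173 and 278 CPM against 2.27, 1.46 and 3.16 CPM (6.39 ± 0.26). Oca2, known from melanosomes, had 205, 74.0 and 262 CPM against 1.60, 0.919 and 1.19 CPM, with replicate 2 lowest. Abca4, Rbm47, Wdr72, Mdfic, Baiap2l1, Arhgap28, Eps8l2, 4833427G06Rik and the ciliary genes Drc7 and Spag16 rose by between 5.44 and 7.01. Another 173 of the 2185 genes called higher carry only a predicted-gene number and are not named.

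**Figure D3:**
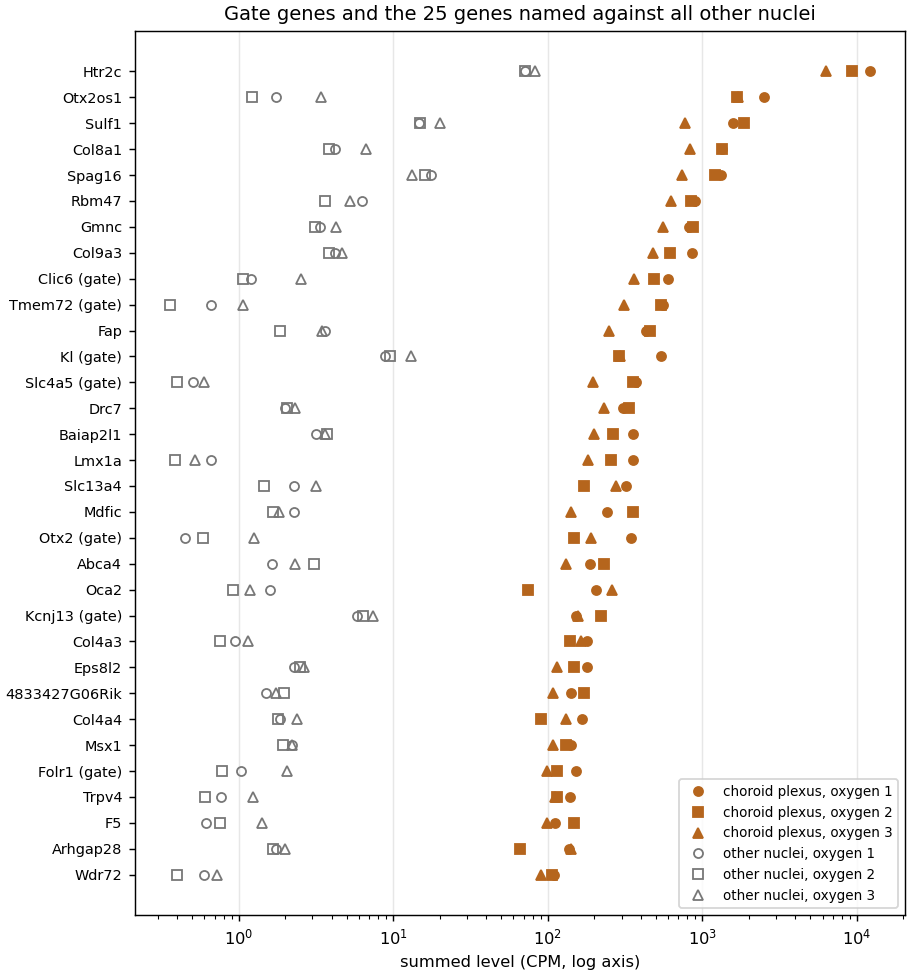
Summed level (CPM, log axis) of the 7 gate genes and the 25 genes named for the largest rises, in choroid plexus nuclei (filled) and in all other nuclei (open) of oxygen replicates 1 to 3 (circle, square, triangle). Every filled point lies right of every open point of the same gene, and for most genes replicate 3 is the lowest filled point.

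The 8 largest falls among genes of at least 100 CPM in the other nuclei were those of Cntnap4, Pcdh15, Sorcs3, Il1rapl2, Chrm3, Mgat4c, Nrxn3 and Nell1, with log2 fold changes between -3.12 and -2.90. Nrxn3, the presynaptic adhesion protein neurexin 3, had 1209, 214 and 1149 CPM in choroid plexus nuclei, against 4315, 4183 and 4019 CPM in the others. All 3 sums were lower, replicate 2 the most. Chrm3, a muscarinic receptor, had 172, 0 and 213 CPM against 731, 680.1 and 813 CPM and lost its call in at least 1 alternative fit (highest adjusted p = 0.0735), while the other 7 kept theirs in all 12. These are sums with neuronal RNA in them, as the neuronal markers above show, and how much of the remaining level is free RNA was not tested.

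Of 17 listed genes for transthyretin and other secreted proteins, 14 were called higher and 0 lower (background 11.8% and 14.5%). Their median log2 fold change was 4.37, beside -0.13 over all genes. The same background applies to each list below that is set against all other nuclei. Enpp2, or autotaxin, which makes lysophosphatidic acid, had 7281, 6420.0 and 3883 CPM in choroid plexus nuclei and 99.0, 97.3 and 115 CPM in all other nuclei (5.35 ± 0.31). Igfbp2, a binder of insulin-like growth factors in the fluid, had 68.2, 74.0 and 321 CPM against 3.91, 3.26 and 7.74 CPM (4.38 ± 0.29). Bmp7, a bone morphogenetic protein, and Vegfa, which keeps the fenestrated capillaries of the plexus open, rose by 4.46 and 1.49. Clu, clusterin, did not pass (1.24 ± 1.05, adjusted p = 0.55). Igf2 had 8.19, 8.22 and 410.3 CPM, almost all of it in replicate 3, and did not pass with all nuclei (edgeR adjusted p = 0.321). Without the deep barcodes it had 9.47, 12.6 and 59.8 CPM, against 3.69, 2.07 and 5.88 CPM in all other nuclei, and was called higher (2.41 ± 0.44, adjusted p = 2.61e-07). Cst3, cystatin C, had a log2 fold change of 1.02 with those barcodes and 0.34 without, where it did not pass. The list then gave 13 higher and 0 lower.

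Of 23 genes for ion and water transport, 15 were called higher and 0 lower, with a median of 2.29, and without the deep barcodes 16 and 0. Slc12a2, the sodium-potassium-chloride cotransporter, had 783, 460.3 and 379.7 CPM in choroid plexus nuclei, against 83.9, 77.1 and 76.0 CPM in the others (2.29 ± 0.22). The kinase and scaffold that act on it, Stk39 and Cab39l, rose by 3.18 ± 0.26 and 3.15 ± 0.23. Slc4a10 and Slc4a2, which move bicarbonate across the basolateral membrane, rose by 1.87 and 3.86, and the carbonic anhydrases Car12 and Car14 by 2.55 and 4.30. Trpm3, a calcium-permeable channel, had 18525, 13128 and 12201 CPM against 961, 901 and 925 CPM (3.52 ± 0.30). Kcne2, the beta subunit of potassium channels in this epithelium, had 84.6, 115 and 42.8 CPM against 0.432, 0.273 and 0.649 CPM (6.90 ± 0.52). Atp1b1, the beta subunit of the sodium pump, had 709.8, 658 and 445 CPM in choroid plexus nuclei and 414, 402 and 397 CPM in all other nuclei and did not pass. Kcne2, Car14 and the other list genes outside the 6 of highest level were named after their values had been seen.

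Among 25 transporters of nutrients and the barrier, 15 were called higher and 1, Abca8a, lower, with a median of 1.56. Without the deep barcodes 15 were higher and 3 lower, the others being Slc7a5 (-1.23 ± 0.45) and Abcg2 (-1.10 ± 0.42). Slco1c1, a thyroxine carrier, had 333, 255 and 275 CPM in choroid plexus nuclei, against 41.1, 45.0 and 31.7 CPM in all other nuclei (2.49 ± 0.22). Slc23a2, which brings vitamin C into the brain, rose by 1.56 ± 0.21, and Slc2a12, a glucose transporter, by 4.73 ± 0.27. Slc16a8, the lactate carrier MCT3 known from the retinal pigment epithelium, had 24.6, 32.9 and 42.8 CPM against 0.126, 0.0718 and 0.307 CPM. Slc2a1, the glucose transporter of the blood-brain barrier, did not pass (0.67 ± 0.31, adjusted p = 0.0956), and Slc46a1, the folate transporter that works with Folr1, had 0, 0 and 5.24 CPM against 0.864, 1.03 and 1.05 CPM and did not pass.

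Of 19 receptor genes tested, 7 were called higher and 2 lower (background 11.8% and 14.5%), with a median of 0.73. Without the deep barcodes it was 9 and 2. Of the 7, 4 held in all 12 alternatives, and of the 2 lower, 0 did. The share lower was not above the background and is no result about this list. Prlr, the prolactin receptor, had 859.9, 395 and 555 CPM in choroid plexus nuclei, against 13.1, 12.7 and 14.5 CPM in all other nuclei (5.02 ± 0.24). The leptin receptor gene Lepr had 128, 148 and 82.1 CPM against 3.71, 2.70 and 3.45 CPM (4.66 ± 0.32), and the growth hormone receptor gene Ghr had 317, 263 and 191 CPM against 69.5, 65.7 and 62.9 CPM and was called higher too. In both, all 3 choroid plexus sums lay above all sums of other nuclei. The receptors for insulin (Insr) and insulin-like growth factor 1 (Igf1r) did not pass (-0.20 ± 0.22 and 0.33 ± 0.22), nor did the glucocorticoid receptor gene Nr3c1 (0.13 ± 0.22). The mineralocorticoid receptor gene Nr3c2 was called lower (-0.81 ± 0.23), a call that was lost in at least 1 alternative fit.

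Of 17 tested genes of epithelial junctions and keratins, 13 were called higher and 2 lower, with a median of 2.73, and without the deep barcodes 11 and 3. Cldn2, the leaky claudin of fluid-moving epithelia, had 106, 65.8 and 60.2 CPM in choroid plexus nuclei and 0.288, 0.158 and 0.740 CPM in all other nuclei (7.20 ± 0.49). Cldn1, a sealing claudin, and Krt18, a keratin of simple epithelia, rose by 4.64 and 7.05, and Tjp3 by 5.85. The 2 called lower were Tjp1 (-1.55 ± 0.23), the scaffold ZO-1, and Cdh2 (-1.53 ± 0.23), N-cadherin. Cdh1, E-cadherin, was called higher with 0, 0 and 48.0 CPM, all of it in replicate 3, and had 0, 0 and 3.52 CPM without the deep barcodes, where it did not pass. Cldn5, the endothelial claudin, did not pass with all nuclei and was called lower without the deep barcodes (-1.82 ± 0.69).

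Among 19 tested transcription factors, 9 were called higher and 1, Meis1, lower, with a median of 0.42. Without the deep barcodes 9 were higher and 4 lower, among them Rfx4 (-2.38 ± 0.55) and Lhx2 (-1.27 ± 0.43). Beside Lmx1a, Msx1 and Gmnc they included Foxj1, Rfx2 and Trp73, which drive ciliary genes (3.87, 3.32 and 3.27), and Zic1 and Zic2 of the dorsal midline (3.54 and 2.98).

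Clock genes gave 6 higher and 3 lower of 20 (background 11.8% and 14.5%), with a median of 0.05, and without the deep barcodes 6 and 5. Of the first 6, 1 held in all 12 alternatives, and of the first 3 lower, 2 did. The share lower with all nuclei was close to the background and is no result about this list. Per1 and Per2, repressors of the clock, rose by 1.00 ± 0.30 and 0.91 ± 0.28, while Arntl, the activator BMAL1, and its partner Npas2 fell by 1.95 ± 0.33 and 1.82 ± 0.26 on the log2 scale. Arntl had 10.9, 24.7 and 23.6 CPM in choroid plexus nuclei, against 57.7, 52.3 and 58.7 CPM in all other nuclei. Nuclear genes of mitochondrial respiration gave 3 higher and 0 lower of 18 with a median of 0.43, and immediate early genes 1 higher and 2 lower of 14. Without the deep barcodes these were 3 and 0, and 0 and 3. These counts are no result about either list, beside the background with all nuclei (11.8% higher and 14.5% lower) or without the deep barcodes. The 1 riser among the immediate early genes, Klf4, had a log2 fold change of -1.04 without those barcodes.

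Immune genes were the group in which the deep barcodes decided the outcome. With all 191 nuclei, 10 of 20 tested interferon response genes and 8 of 12 complement and immune genes were called higher and 0 lower. Without the 13 barcodes it was 3 higher and 2 lower of the first list and 1 higher and 3 lower of the second, and the medians were 0.05 and -0.63, in place of 1.38 and 1.80. The 13 barcodes held 80.9% of the UMIs of the interferon list and 81.0% of those of the complement list, while they held at most 50.4% of all UMIs of the choroid plexus nuclei in any library. Ifitm3, an antiviral membrane protein, had 10.9, 0 and 135 CPM in choroid plexus nuclei and 6.23, 6.35 and 6.89 CPM in all other nuclei, and 12.6, 0 and 5.28 CPM in choroid plexus nuclei without them. Cd74, the invariant chain of antigen presentation, had 0, 0 and 65.5 CPM with them and 0 CPM in each library without. Astrocyte, fibroblast and endothelial markers were higher in replicate 3 with those barcodes, as given above. The sum of microglial markers stood above the other nuclei with and without the deep barcodes, without them by Cx3cr1 alone. The part of these markers in the immune calls was not tested. Vcam1, an adhesion molecule for leukocytes, was the 1 complement or immune gene called in all alternatives, with 68.2, 32.9 and 126 CPM against 3.92, 3.43 and 5.23 CPM and a log2 fold change of 3.78 ± 0.35 (3.90 without the deep barcodes).

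**Figure D4:**
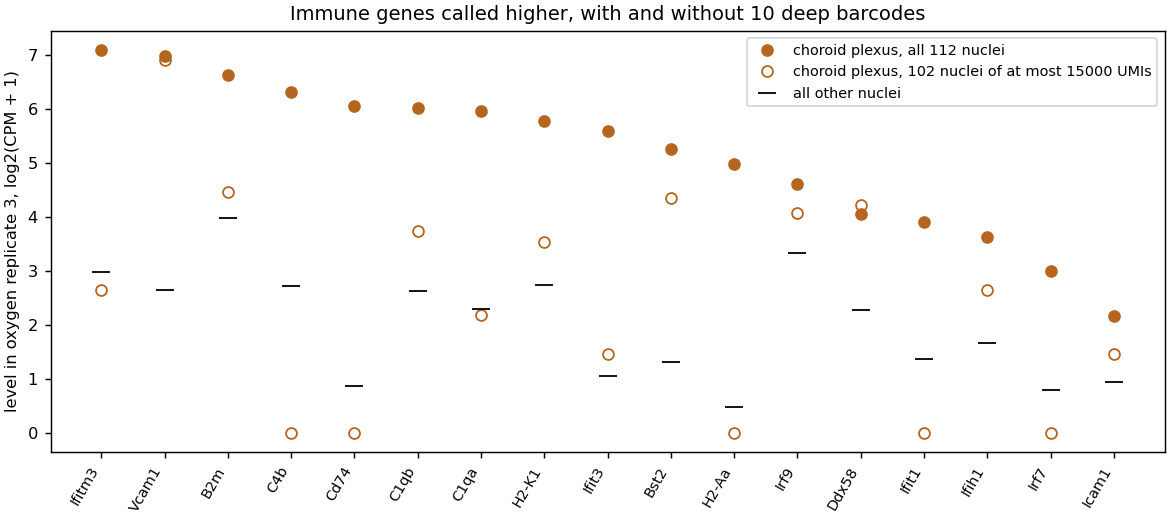
Level of all but 1 of the 18 interferon, complement and other immune genes called higher, in oxygen replicate 3 (log2(CPM + 1)): all 112 choroid plexus nuclei (filled), the 102 of at most 15000 UMIs (open) and all other nuclei (bars). The open points of Ifitm3, C4b, Cd74, C1qa, H2-Aa, Ifit1 and Irf7 lie below the bar, while those of Vcam1 and Ddx58 lie close to the filled ones.

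Ependymal nuclei served as the nearest comparison within the ventricle lining. They were 261 nuclei of the oxygen libraries (89, 106 and 66) with a UMI in at least 3 of Foxj1, Ccdc153, Tmem212, Dnah12, Dnah6, Cfap44 and Ak7 that did not meet the choroid plexus gate, and 54 of the 191 choroid plexus nuclei met this second gate too. Only 14, 20 and 14 of the ependymal nuclei held fewer than 3 markers of every other listed type outside the choroid plexus. The ependymal sums held 739, 762 and 581 CPM of the neuronal marker Snap25. It stood at 497, 403 and 408 CPM in choroid plexus nuclei and 958, 949 and 1006 CPM in all other nuclei. Fold changes against the ependyma are thus against a set with neuronal RNA in it. Of 8428 genes tested outside both gates, 644 (7.64%) were called higher and 971 (11.5%) lower in choroid plexus nuclei, 19.2% in all. Without barcodes over 15000 UMIs the calls were 1076 higher and 1477 lower of 7028 genes tested. The 12 named rises and the 12 named falls were each called in all 10 alternative fits.

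Set against ependymal nuclei, Htr2c had the largest rise of the named genes, with 12072, 9256 and 6326 CPM in choroid plexus nuclei and 50.4, 66.6 and 41.1 CPM in ependymal nuclei (7.32 ± 0.51, adjusted p = 1.08e-05). Fap, Col4a3, Wdr72, Rbm47, Col8a1, Otx2os1, Col9a3 and Trpv4, all named above, rose by between 5.20 and 6.92. The other named rises were Strip2, Prlr and Enpp2 (5.54, 5.36 and 5.16). Secreted proteins gave 11 higher and 0 lower of 14 (background 7.64% and 11.5%), ion and water transport 12 and 0 of 20, and barrier transporters 13 and 0 of 16. Without barcodes over 15000 UMIs these were 10 and 1, 15 and 1, and 11 and 1, and the background was 1076 and 1477 of 7028. Clu was then lower than in the ependyma (-1.72 ± 0.23), as was Slc2a1 (-2.00 ± 0.29). Some genes, Slc16a8 among them, were not tested then. Ttr had 3434, 3510.0 and 6706 CPM in choroid plexus nuclei, against 304, 67.8 and 879 CPM in ependymal nuclei (3.87 ± 0.54). Some choroid plexus genes were shared with the ependyma: Lbp, the lipopolysaccharide-binding protein, was high against all other nuclei (4.26), and had 62.8, 90.4 and 91.7 CPM in choroid plexus and 53.9, 71.3 and 129 CPM in ependymal nuclei (-0.15 ± 0.27, not passing).

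Most motile cilia genes were higher in choroid plexus nuclei than in all other nuclei and lower than in the ependyma. Against all other nuclei 16 of 23 were called higher and 0 lower, with a median of 2.13. Without the deep barcodes 16 were higher and 3 lower: Tmem212 had 0 CPM in each choroid plexus sum, against 7.56, 7.91 and 7.22 CPM in all other nuclei, Dnah12 had 0, 0 and 7.04 CPM, against 12.6, 12.3 and 12.8 CPM, and Dnah5 had a log2 fold change of -2.15 ± 0.65. Ccdc153, called higher with all nuclei, did not pass then (-0.67 ± 1.09). All other nuclei include the 261 ependymal nuclei, which held 607, 528 and 841 CPM of Tmem212 and 1075, 891 and 1712 CPM of Dnah12. How far the 3 falls rest on those ependymal nuclei was not tested. Against ependymal nuclei 0 of the 16 genes outside the gates were called higher and 14 lower, with a median of -2.06, and the 14 held in all 10 alternatives. The ependymal nuclei were themselves chosen by the other 7 genes of this list, which favours high ciliary levels in them. Spag16, a protein of the central pair, had 1319, 1200.2 and 740.3 CPM in choroid plexus, 1323, 1025 and 1430.1 CPM in ependymal and 17.6, 16.1 and 13.2 CPM in all other nuclei, and did not differ from the ependyma by the test (-0.34 ± 0.33). Cfap43 had 207, 156 and 169 CPM in choroid plexus, 466, 385 and 616 CPM in ependymal and 8.80, 9.26 and 8.48 CPM in all other nuclei. It lay between the other sets in each library.

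The list was not uniform, however. Spag17, also of the central pair, had 5.46, 8.22 and 31.4 CPM in choroid plexus and 565, 415 and 699 CPM in ependymal nuclei (-5.14 ± 0.42). Dnah5, an outer dynein arm heavy chain, had 8.19, 0 and 18.3 CPM against 283, 241 and 400.0 CPM (-4.80 ± 0.37), and Dnah7a, of the inner arm, 5.46, 0 and 16.6 CPM against 165, 168 and 252 CPM (-4.32 ± 0.37). Dnah11, another outer arm heavy chain, fell less, with 142, 139.7 and 159.8 CPM against 523, 425 and 622 CPM (-1.93 ± 0.27). The 7 ependymal gate genes are given without a test. Dnah12 had 0, 0 and 41.9 CPM in choroid plexus nuclei, against 1075, 891 and 1712 CPM in ependymal nuclei. Tmem212 had 0, 0 and 21.8 against 607, 528 and 841 CPM, and Ccdc153 5.46, 0 and 24.4 against 132, 129 and 225 CPM. Ak7 had 71.0, 41.1 and 60.2 against 541, 421 and 658 CPM. Nearer to the ependyma were Dnah6 (322, 271 and 203 against 470, 413 and 660 CPM) and Cfap44 (289, 181 and 176 against 584, 494 and 762 CPM). Foxj1 had 27.3, 57.5 and 32.3 against 57.4, 42.1 and 82.2 CPM. Without the deep barcodes Dnah12 had 0, 0 and 7.04 CPM in choroid plexus nuclei and Tmem212 had 0 in each library. Whether these genes differ from Spag16 in their fold was not tested as such. Outside the list of motile cilia genes, Drc7, of the dynein regulatory complex, and Gmnc stood higher in choroid plexus nuclei than in the ependyma. Drc7 had 308, 337 and 230.5 CPM against 111, 81.8 and 107 CPM (1.43 ± 0.25), and Gmnc rose by 4.07 ± 0.32.

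The 12 largest falls against the ependyma, Unc5cl, Ttll8, Ttc29, Wdr49, Lrrc36, Frmpd2, 3300002A11Rik, Rgs22, Lrrc43, Ankub1, T2 and Ect2l, had log2 fold changes between -6.44 and -5.31. Ttll8, an enzyme that adds glycine to tubulin, had 0, 0 and 6.11 CPM in choroid plexus nuclei and 304, 188 and 351 CPM in ependymal nuclei. Its few choroid plexus UMIs came from replicate 3, and 0 remained without the deep barcodes. Among transcription factors Rfx4, Pax6 and Sox2 were lower (-3.20, -2.55 and -1.89), and Lmx1a, Gmnc, Msx1 and Zic1 higher (3.57, 4.07, 1.89 and 1.16). Zic1, alone of these 7, changed direction in an alternative fit (-0.10 without barcodes over 15000 UMIs, where Pax6 was not tested). Rfx4 had 8.19, 8.22 and 23.6 CPM in choroid plexus nuclei, against 174, 134 and 132 CPM in ependymal nuclei.

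**Figure D5:**
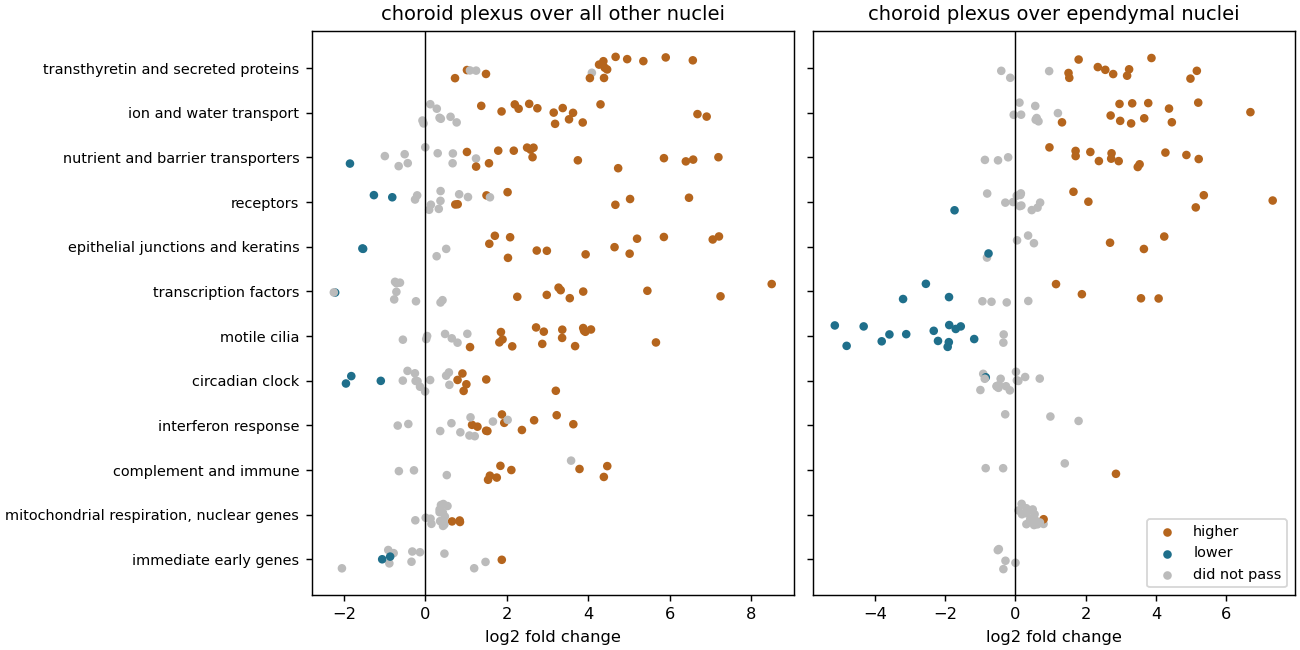
Log2 fold change of each tested gene of the 12 lists, choroid plexus over all other nuclei (left) and over ependymal nuclei (right); each point is a gene, brown when called higher, blue when called lower and grey when it did not pass, and genes with 0 UMIs in choroid plexus nuclei or, on the right, in ependymal nuclei are not drawn. Motile cilia genes lie mostly right of 0 on the left panel, with 16 called higher, and left of 0 on the right panel, with 14 called lower.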

How the data were processed

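Per the labels' protocols, nuclei were isolated from frozen hippocampi and 3' libraries were made with a droplet kit. The submitters' processing notes name fastp, Cell Ranger 7.1.0 and the build mm10. What the authors deposited are raw counts, UMIs of 32285 genes in each barcode. Whether intronic reads were counted, and which annotation was used, is not given in the sources used here. Gene positions come from GENCODE M21 by Ensembl ID (32235 genes matched) and promoters from RefSeq GRCm38.p6.

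Of 53824 deposited barcodes 53294 passed the filters of 500 UMIs and 5% mitochondrial UMIs. Doublets were scored with Scrublet in scanpy 1.11.5 and kept in the main sums. The automatic score threshold of oxygen replicate 1 (0.658) stood apart, so 0.317, the median over libraries, was used throughout. Counts were summed per library over choroid plexus, ependymal and all other nuclei and tested with edgeR 4.0.16 (quasi-likelihood, robust fit, TMM, filterByExpr, library as block because both sums come from the same library; R 4.3.3), with Benjamini-Hochberg adjustment over all genes tested and calls at an adjusted p under 0.05. Each fold change is the log2 of choroid plexus over the other set. Intervals are 95% Wilson intervals, and limits for a count of 0 use 3 counts. The scripts were tested on simulated data.

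Named genes were, among called genes of at least 100 CPM that differed the same way in every library, the 25 largest rises and 8 largest falls against all other nuclei and the 12 largest of each against ependymal nuclei, besides the gate genes, the listed markers, Ttr and up to 6 genes of highest level from each of 12 lists. The nuclei, the gene lists and these rules were chosen with earlier results of these data known. Of the listed genes, 3 are not named in the files, and some others are not reported here.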

Additional observations from a re-analysis of the deposited data

How the results depend on the processing

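The share of nuclei depended on the number of gate genes asked for. With 2 in place of 3 it was 0.519%, 0.818% and 0.816% in sevoflurane replicates 1 to 3 and 1.39%, 0.785% and 2.88% in oxygen replicates 1 to 3. With 4 it was 0% in sevoflurane replicates 1 and 2, and without Scrublet doublets 0% in sevoflurane replicate 2. Against all other nuclei, leaving out 1 oxygen library gave between 3074 (without replicate 3) and 4555 genes called, beside 4866 with all. Against ependymal nuclei it gave between 960 (without replicate 1) and 1757, beside 1615, the DESeq2 1.42.0 Wald test gave 971, and leaving out barcodes over 15000 UMIs, chosen after seeing the data, gave 2553. The cause of these shifts was not tested. Both sums of a library come from the same sample, so the main fits pair them by library; with no replicate block 6625 genes were called against all other nuclei and 1719 against ependymal nuclei. The remaining settings gave between 3406 (DESeq2 Wald test) and 6091 (without members over 15000 UMIs, also chosen after seeing the data) calls against all other nuclei and between 1515 and 2159 against ependymal nuclei. DESeq2 size factors in place of TMM moved the split against all other nuclei to 2356 higher and 2460 lower. Oxygen replicate 2 rests on only 17 choroid plexus nuclei, which sum to 121651 UMIs. Leaving it out gave 4555 calls against all other nuclei and 1757 against ependymal nuclei. How far its low number of nuclei limits precision was not tested.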
